A study of Mus musculus with 20 samples.

Results

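The S100 proteins are small calcium-binding proteins of the EF-hand class, and 10 of their genes were followed here, out of 54986 genes in the deposited table: S100a1, S100a4, S100a6, S100a8, S100a9, S100a10, S100a11, S100a13, S100a14 and S100a16. They were taken from the table by gene name. The list was chosen by gene family, with the CPM values of these libraries and differences between the conditions already known, and the rule states no threshold or contrast, so the tests below describe how far the conditions lay apart against the spread between duplicate libraries and are no independent support for any pattern. Most S100 proteins form dimers that open on calcium binding and then grip a short stretch of a target protein, such as an annexin or a myosin heavy chain. S100a10 is the exception, as it has lost calcium binding and stays in a tetramer with annexin A2. S100a4 is widely used as a marker of motile, mesenchymal-like and metastatic cells, and secreted S100a8 and S100a9, the calprotectin subunits of neutrophils, are ligands of the receptors RAGE and Tlr4.

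The libraries came from NMuMG, an epithelial cell line of the mouse mammary gland, and the study asked how RNA levels change when such cells go through an epithelial-mesenchymal transition (EMT), form tumors and metastases, or gain or lose the long noncoding RNA Platr18. Each of 10 conditions had 2 libraries. There were 5 conditions of a first kind of library: untreated NMuMG cells, NMuMG cells given TGFβ for several days, NMuMG cells silenced by shRNA for hnRNP E1, the RNA-binding protein encoded by Pcbp1 (E1KD), and the M1P and L1P lines, which were recovered into culture from a primary tumor and from lung metastases that E1KD cells had formed in immunodeficient NOD/SCID mice. The other 5 conditions were NMuMG cells with an empty vector, 2 clones overexpressing Platr18 (clone 12 and clone 16), and E1KD cells that had received either a scrambled shRNA (the E1KD SCR line) or a hairpin to silence Platr18 (the line E1KD Platr18 KD). Every line thus descends from NMuMG, each clone is 1 clone, only 1 hairpin against Platr18 was sequenced, and the number of mice behind M1P and L1P is not given in the sources used here. The labels number the libraries of a condition 1 and 2 and do not say that they came from separate cultures, so p-values measure only the spread between such libraries, which may be technical.

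Values are counts per 1e6 reads (CPM), scaled by the authors to library totals of 50.8 to 60.0 (in units of 1e6 reads) in the first kind of library and from 63.0 up to 147 in the second set, so that 3 reads were worth 0.0204 to 0.0591 CPM. The mitochondrial ribosomal RNA mt-Rnr2 took 333 to 492 CPM in the first kind and 113874 to 165149 CPM in the other, and levels were therefore compared only within a kind. Pcbp1, the silenced gene, had 287 and 312 CPM in NMuMG and 16.6 and 14.2 CPM in E1KD, 32.3 CPM in both empty vector libraries and 3.28 and 3.46 CPM in E1KD SCR. Platr18, listed as Lncenc1, had 3.69 and 3.06 CPM with the empty vector, 3092 and 3096 CPM in clone 12, 813 and 820 CPM in clone 16, 2.92 and 3.10 CPM in E1KD SCR and 0.136 and 0.170 CPM in E1KD Platr18 KD. The 2 E1KD libraries stood apart, with CPM summed over genes of 728651 in library 1 and 567414 in library 2: the log2 ratio of library 1 to library 2 had a median of 0.29 over the 17106 genes tested, while no other pair exceeded 0.07 in size. Of the cell type markers, the endothelial list summed to at most 0.542 CPM, the lung epithelial list to at most 0.903 CPM, and the leukocyte list to between 2.62 and 8.33 CPM in any library, also in M1P and L1P. The stromal fibroblast list summed to 42.9 and 51.6 CPM after TGFβ and to at most 1.68 CPM elsewhere.

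All 10 genes lie on mouse chromosome 3 (GRCm38), 8 of them in a block of 185 kb between positions 90511034 and 90695721, and S100a11 and S100a10 together at 93520488 to 93564643. Within the block the order is S100a1, S100a13, S100a14, S100a16, S100a4, S100a6, S100a8 and S100a9. S100a1 (90511034 to 90514392, minus strand) and S100a13 (90514435 to 90524581, plus strand) start back to back, with 42 bases between their annotated first bases. The bases between them are shown because they lie directly upstream of the annotated first base of each gene. They are followed by the bases upstream of S100a4 (90603771 to 90606045, plus strand) and S100a6 (90612882 to 90624181, plus strand), neighbours 6836 bases apart. All are from the RefSeq promoter table of GRCm38.p6, plus strand, and capitals mark TATAAA.
S100a1-S100a13 gap, chr3:90514393-90514434: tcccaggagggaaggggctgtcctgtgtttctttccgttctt
S100a4 upstream, chr3:90603520-90603769: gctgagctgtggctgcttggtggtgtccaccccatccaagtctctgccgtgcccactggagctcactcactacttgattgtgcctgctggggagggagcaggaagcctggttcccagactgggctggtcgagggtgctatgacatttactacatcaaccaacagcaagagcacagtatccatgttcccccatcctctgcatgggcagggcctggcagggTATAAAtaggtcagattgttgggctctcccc
S100a6 upstream, chr3:90612644-90612881: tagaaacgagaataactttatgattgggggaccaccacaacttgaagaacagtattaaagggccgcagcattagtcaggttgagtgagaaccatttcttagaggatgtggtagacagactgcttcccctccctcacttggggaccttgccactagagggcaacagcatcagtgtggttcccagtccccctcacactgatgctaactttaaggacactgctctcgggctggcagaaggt

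The promoter table held windows for 8 of the 10 genes. The letters TATAAA, searched on the gene's strand in the 250 bases before the start, stood in the windows of S100a4 and S100a8, and in 7.59% of all 32851 windows. In S100a4 they end 25 bases before the end of the stretch shown. The letters of an AP-1 site, TGACTCA on either strand, stood in the window of S100a11 and in 4.46% of all windows. The GC box letters GGGCGG, on either strand, stood in windows of S100a9, S100a11 and S100a16 and in 32.7% of all. CACCTG, an E-box bound by the Snail and Zeb repressors, stood on either strand in windows of S100a9 and S100a16 and in 17.2% of all. These are matches of letters and not mapped sites.

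S100a6, a calcium sensor that binds the Siah1-interacting protein Cacybp, was the most abundant of the genes per length of exon in 9 of the 10 conditions. After TGFβ S100a11 came first, with 283 CPM per kb beside 172 CPM per kb of S100a6. In NMuMG it had 974 CPM per kb, followed by S100a11 at 413, S100a10 at 132, S100a4 at 105, S100a1 at 33.7, S100a13 at 19.7, S100a16 at 18.1 and S100a14 at 1.31 CPM per kb. The order changed in E1KD, where S100a4 came level with S100a6: the libraries held 932 and 537 CPM per kb of S100a4 and 1019 and 452 CPM per kb of S100a6, which overlap. With the empty vector the level of S100a6 was 1919 CPM per kb and that of S100a4 181 CPM per kb, and in E1KD SCR they were 1119 and 932 CPM per kb. S100a6 alone made up 72.1% of the CPM summed over the 17 S100 genes of the table in NMuMG and 83.6% with the empty vector. S100a8 and S100a9 did not pass the filter of 1 CPM in at least 2 libraries, so 8 of the 10 genes were tested.

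**Figure D1:**
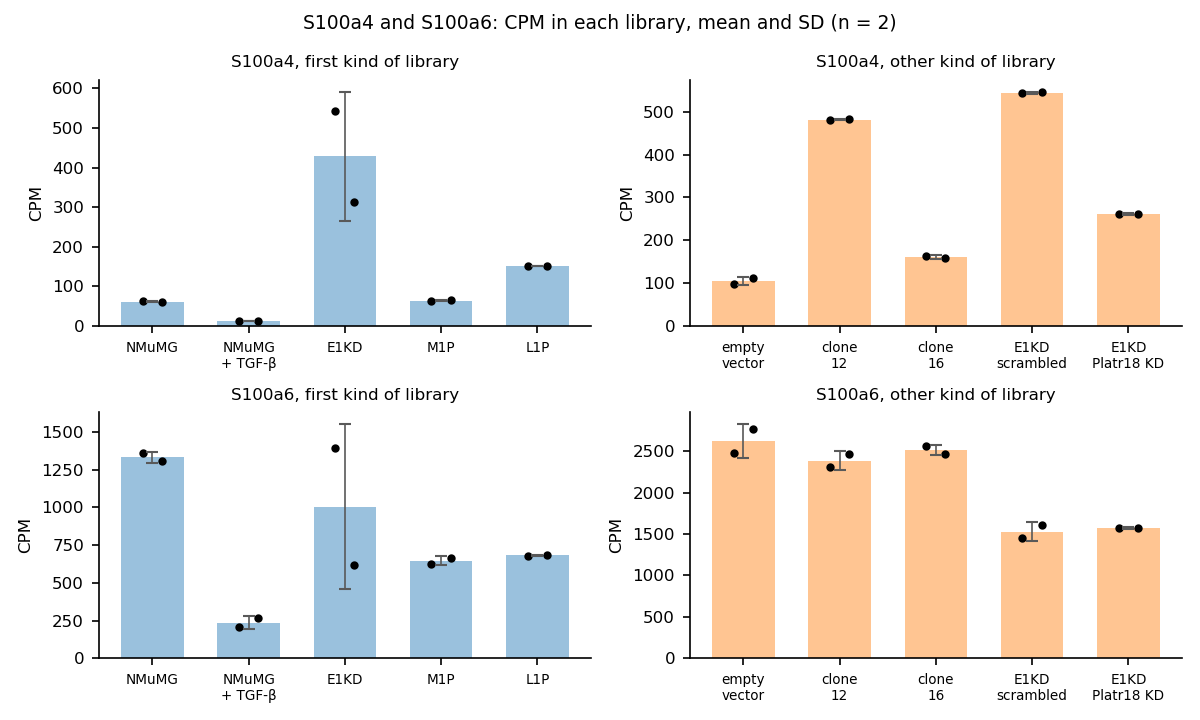
CPM of S100a4 (top) and S100a6 (bottom) in the 5 conditions of the first kind of library (left) and the 5 of the other kind (right). Points are libraries, bars their mean and lines the SD (n = 2). S100a4 was lowest after TGFβ, at 12.2 and 12.6 CPM, and highest in E1KD and E1KD SCR, while S100a6 was lowest after TGFβ and, in the other kind, lower in both E1KD lines than with the empty vector.

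TGFβ lowered S100a4, S100a6, S100a13, S100a10 and S100a14. S100a4 had 62.8 and 60.4 CPM in NMuMG and 12.2 and 12.6 CPM after TGFβ, a 4.98-fold lower mean. S100a6 had 1358 and 1305 CPM in NMuMG and 205 and 265 CPM after TGFβ, a 5.66-fold lower mean. S100a13, which takes part in the release of Fgf1 and other proteins that lack a signal peptide, had 14.9 and 13.3 CPM and then 2.69 and 2.57 CPM, a 5.38-fold lower mean. In each of these the treated libraries lay far below the untreated ones, with no overlap. S100a10, the annexin A2 partner, had 168 and 153 CPM in NMuMG and 59.3 and 62.3 CPM after TGFβ, a 2.64-fold lower mean. S100a14, a member found mainly in epithelia, had 2.41 and 2.11 CPM in NMuMG and 0.0669 and 0.233 CPM after TGFβ, where the values rest on 4 and 14 reads.

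A gene was called at an unadjusted p under 0.001 from limma and a change of at least 1 on the log2(CPM + 1) scale, which understates the change of genes with low CPM. The 5 genes called lower, of 8 tested, stand against 7.66% of all genes called lower between TGFβ-treated and untreated NMuMG and 13.5% called in either direction. The log2 fold changes were -2.51 for S100a6 (standard error 0.245, adjusted p = 6.4e-07, limma with Benjamini-Hochberg adjustment over all genes), -2.23 for S100a4 (standard error 0.162, adjusted p = 2.6e-08), -2.06 for S100a13 (standard error 0.228, adjusted p = 2.4e-06), -1.51 for S100a14 (standard error 0.12, adjusted p = 6.7e-08) and -1.38 for S100a10 (standard error 0.116, adjusted p = 1.2e-07). The other 3 were also lower, under the limit on the fold change: S100a1 by -0.86, S100a16 by -0.71 and S100a11 by -0.54 (adjusted p between 2.7e-05 and 0.00505, limma). The median of the 8 was -1.45, and that of all genes tested -0.08. All 8 kept a negative sign with each library left out and with either other scaling of the values, but with a pseudocount of 5 the change of S100a14 was -0.50 and its call was lost. The mesenchymal markers moved the other way in the same libraries, with 5 of 8 tested called higher, among them Fn1 at 5.86, Zeb2 at 3.08, Snai1 at 2.78 and Cdh2 at 2.29, and 1 of 6 tested epithelial markers, Krt19, was called lower at -4.67. S100a4, commonly read as a mesenchymal marker itself, thus fell in the libraries where Fn1 and Zeb2 rose. In bulk RNA, fewer cells with a transcript and less of it per cell cannot be told apart.

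Values of the genes around the block can be set beside these. The 6 tested genes outside the family that lie in the block or within 100000 bases of it, a window chosen after the values were seen, had changes after TGFβ between -0.96 for Ilf2 and 0.58 for Snapin, all under the limit of 1 in size. The median of the 6 was -0.34, and that of all genes tested -0.08. In E1KD against TGFβ-treated cells, 2 of the 6 were called higher, Ilf2 at 1.465 and Ints3 at 1.10, where 23.3% of all genes were called in either direction. Of the 9 further S100 names of the family list, 7 were in the table and 2 of them were tested. After TGFβ S100a3 fell by 1.62 on the log2 scale (adjusted p = 5.4e-09, limma), from 7.84 and 7.66 CPM to 1.97 and 1.72 CPM. S100a7a, a psoriasin-related gene, had a change of 0.62 in the other direction (adjusted p = 1.9e-04, limma), from 3.98 and 3.68 CPM to 6.16 and 6.73 CPM.

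Silencing of hnRNP E1, the other route into EMT in this model, gave another picture, with S100a4 as the only one of the 8 genes called. S100a4 had 62.8 and 60.4 CPM in NMuMG and 544 and 313 CPM in E1KD, a 6.96-fold higher mean. The E1KD libraries differed 1.74-fold from each other, and both were above every other library of the first kind. On the log2 scale the change was 2.73 (standard error 0.162, adjusted p = 4.1e-09, limma), and it was between 2.33 and 3.12 with each library left out in turn. Over all genes 9.44% were called. The other 7 genes had log2 fold changes between -0.78 for S100a14 and 0.69 for S100a13, 3 of them positive and 4 negative. The signs of S100a1, S100a6, S100a10, S100a11 and S100a16 turned when some single library was left out. In a fit of the 4 compared libraries alone S100a4 had the same fold change and an adjusted p of 0.0246 (limma), and its call was lost. The list of 9 mesenchymal markers had 7 of 8 tested called higher in E1KD, with Fn1 at 3.76, Snai1 at 2.00 and Cdh2 at 1.73.

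Several values in E1KD rested on which library was read. S100a6 had 1393 and 617 CPM in E1KD, on either side of the NMuMG values, and S100a13 had 35.0 and 15.4 CPM. Without E1KD library 2 the log2 fold change of S100a13 was 1.25 and passed the limit, and without library 1 that of S100a6 was -1.11 and did. Without either library, 3 of the 10 tested S100 genes were called in place of 2, the second being S100a7a. Among genes that no scaling or left-out library turned around, S100a14 had 2.41 and 2.11 CPM in NMuMG and 1.12 and 0.684 CPM in E1KD, a log2 difference of -0.78 (adjusted p = 7.1e-05, limma) that is under the limit of 1. S100a10 had 168 and 153 CPM and then 195 and 134 CPM, a difference of 0.01 with a 95% confidence interval from -0.24 to 0.26. That interval rests on the spread of all 20 libraries, and with each library left out the difference lay between -0.25 and 0.28, outside it. The signs of S100a10 and S100a11 turned with either other scaling, which moved the median of all genes in this comparison from 0.17 to 0.03 or 0.04.

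Set directly against each other, E1KD and TGFβ-treated cells differed in 4 of the 8 genes, all higher in E1KD, where 23.3% of all genes were called in either direction. The log2 differences were 4.95 for S100a4 (standard error 0.162, adjusted p = 2.9e-12, limma), 2.74 for S100a13 (standard error 0.228, adjusted p = 7.7e-08), 1.99 for S100a6 (standard error 0.245, adjusted p = 4.9e-06) and 1.40 for S100a10 (standard error 0.116, adjusted p = 7.8e-08). The mean of S100a4 was 34.7-fold higher in E1KD than after TGFβ. All 8 differences were positive, with a median of 1.06 against 0.26 for all genes. With median-of-ratios scaling the median of all genes was 0.03, and the 8 differences stayed positive. In a fit of the 4 compared libraries alone, only 2 of the 10 tested S100 genes were called, S100a4 and S100a7a. Of the 8 tested mesenchymal markers, 2 were called lower in E1KD than after TGFβ, Fn1 at -2.11 and Zeb2 at -1.55, 1 was called higher, Vim at 1.11, and 5 were not called.

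**Figure D2:**
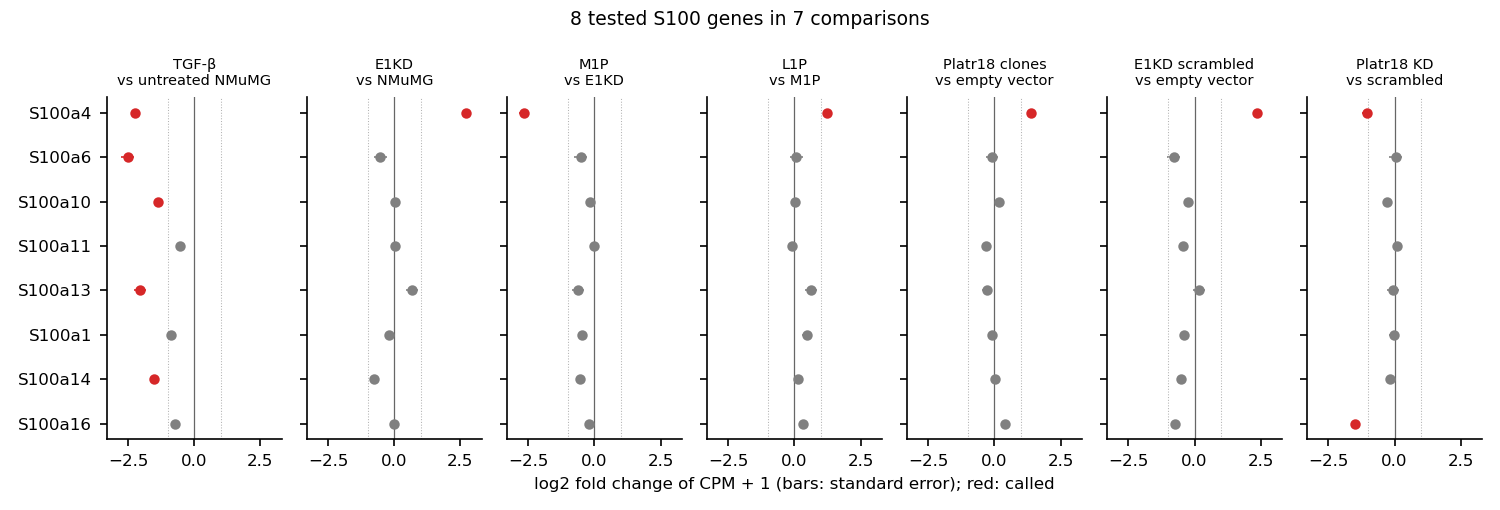
Log2 fold change of CPM + 1 of the 8 tested genes in 7 comparisons, with bars for the standard error, dotted lines at -1 and 1, and called genes in red. After TGFβ all 8 points lie left of 0 and 5 are called, while in the other comparisons S100a4 is called each time and only S100a16 joins it, after Platr18 silencing.

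Along the tumor series the level of S100a4 fell and rose again. It had 544 and 313 CPM in the injected E1KD cells, 63.2 and 64.7 CPM in the primary tumor line M1P and 151 and 152 CPM in the metastasis line L1P. The M1P values were close to those of unsilenced NMuMG, at 62.8 and 60.4 CPM, although Pcbp1 in M1P stood at 26.5 and 27.6 CPM. On the log2 scale the change was -2.67 from E1KD to M1P (standard error 0.162, adjusted p = 1.3e-08, limma) and 1.23 from M1P to L1P (standard error 0.162, adjusted p = 1.0e-04, limma). S100a4 was the 1 gene of the 8 called at each of these steps, where 3.59% and 1.21% of all genes were called. The first call was lost in a fit of the 4 compared libraries (adjusted p = 0.0603), and the second in a fit of the 10 libraries of the first kind (adjusted p = 0.0208), with the same fold changes. Of the 8 tested mesenchymal markers 1 was called at each step, the fibronectin gene Fn1, by -1.81 and 1.59, and the other 7 were not.

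From E1KD to M1P the other 7 genes had log2 fold changes between -0.62 and -0.01, all negative, although with median-of-ratios scaling those of S100a10, S100a11 and S100a16 were positive. The median of all genes was -0.17 in this comparison and -0.01 with that scaling. From M1P to L1P the changes of the 7 lay between -0.10 for S100a11 and 0.61 for S100a13. S100a13 had 14.8 ± 0.209 CPM (SD, n = 2) in M1P and 23.2 ± 1.30 CPM in L1P (adjusted p = 0.0831, limma), and was not called. S100a16, a widely expressed member, had 25.2 and 25.9 CPM and then 30.9 and 33.1 CPM (log2 fold change 0.31, adjusted p = 0.0431, limma). S100a6 stayed between 627 and 686 CPM in the 4 libraries of the tumor lines, below both NMuMG libraries. M1P and L1P were cultures, and their leukocyte marker sums, 5.98 to 8.33 CPM, stood beside 2.83 and 2.85 CPM in NMuMG and 4.18 and 5.86 CPM in E1KD. Their part in the S100a4 values was not tested.

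With Platr18 overexpression S100a4 was higher in both clones, and by unequal amounts. It had 99.1 and 112 CPM with the empty vector, 481 and 482 CPM in clone 12 and 164 and 158 CPM in clone 16. Duplicates of a clone were close, and the 3 lines did not overlap. The mean of the clones was above the empty vector by 1.39 on the log2 scale (standard error 0.141, adjusted p = 4.9e-06, limma), and S100a4 was the 1 gene of the 8 called, where 1.46% of all genes were. Clone 12 alone gave 2.18 (adjusted p = 1.3e-07, limma) and clone 16 alone 0.61 (adjusted p = 0.0146, limma), which was not called. The difference between the clones was itself called, at -1.58 (standard error 0.162, adjusted p = 3.0e-06, limma), where 4.38% of all genes were. Clone 12 held 3092 and 3096 CPM of Platr18 and clone 16 813 and 820 CPM, but 2 clones cannot separate the dose of Platr18 from other differences between clones. The head-to-head pair S100a1 and S100a13 were also lower in clone 16 than in clone 12, by -0.66 and -0.74 (adjusted p = 0.00425 and 0.0173, limma), both under the limit. S100a13 had 34.9 and 36.7 CPM in clone 12, 20.5 and 21.6 CPM in clone 16 and 31.9 and 35.1 CPM with the empty vector. S100a6, the neighbour of S100a4, had 2477 and 2768 CPM with the empty vector, 2305 and 2470 CPM in clone 12 and 2558 and 2468 CPM in clone 16, groups that overlap. S100a16 was higher in the mean of the clones than with the empty vector by 0.41 (adjusted p = 0.00277, limma), under the limit.

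Silencing of Platr18 in E1KD cells lowered S100a16 and S100a4. S100a16 had 9.69 and 10.5 CPM in E1KD SCR and 2.97 and 2.91 CPM in E1KD Platr18 KD, a 3.45-fold lower mean. In log2 units this was -1.50 (standard error 0.1, 95% confidence interval from -1.71 to -1.28, adjusted p = 1.1e-07, limma), and with a pseudocount of 5 it was -0.93, not called. S100a4 had 543 and 546 CPM in E1KD SCR and 261 and 262 CPM after silencing, a 2.08-fold lower mean. This was -1.06 in log2 units (standard error 0.162, adjusted p = 3.4e-04, limma), near the limit, and it was -0.99, not called, with values scaled to equal sums. These 2 of 8 stand beside 1.48% of all genes called. For both genes each silenced library was below each control library. That also held for S100a1, S100a10 and S100a13, which were not called, and for S100a1 at a log2 fold change of only -0.04. The share of all genes with such separation was not counted, so it does not set these genes apart. The 6 genes other than S100a16 and S100a4 had changes between -0.30 for S100a10 and 0.11 for S100a11 (adjusted p = 0.0911 and 0.704, limma). Of the 8 tested mesenchymal markers 1 was called in the same comparison, Fn1, which fell by 1.59 on the log2 scale.

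**Figure D3:**
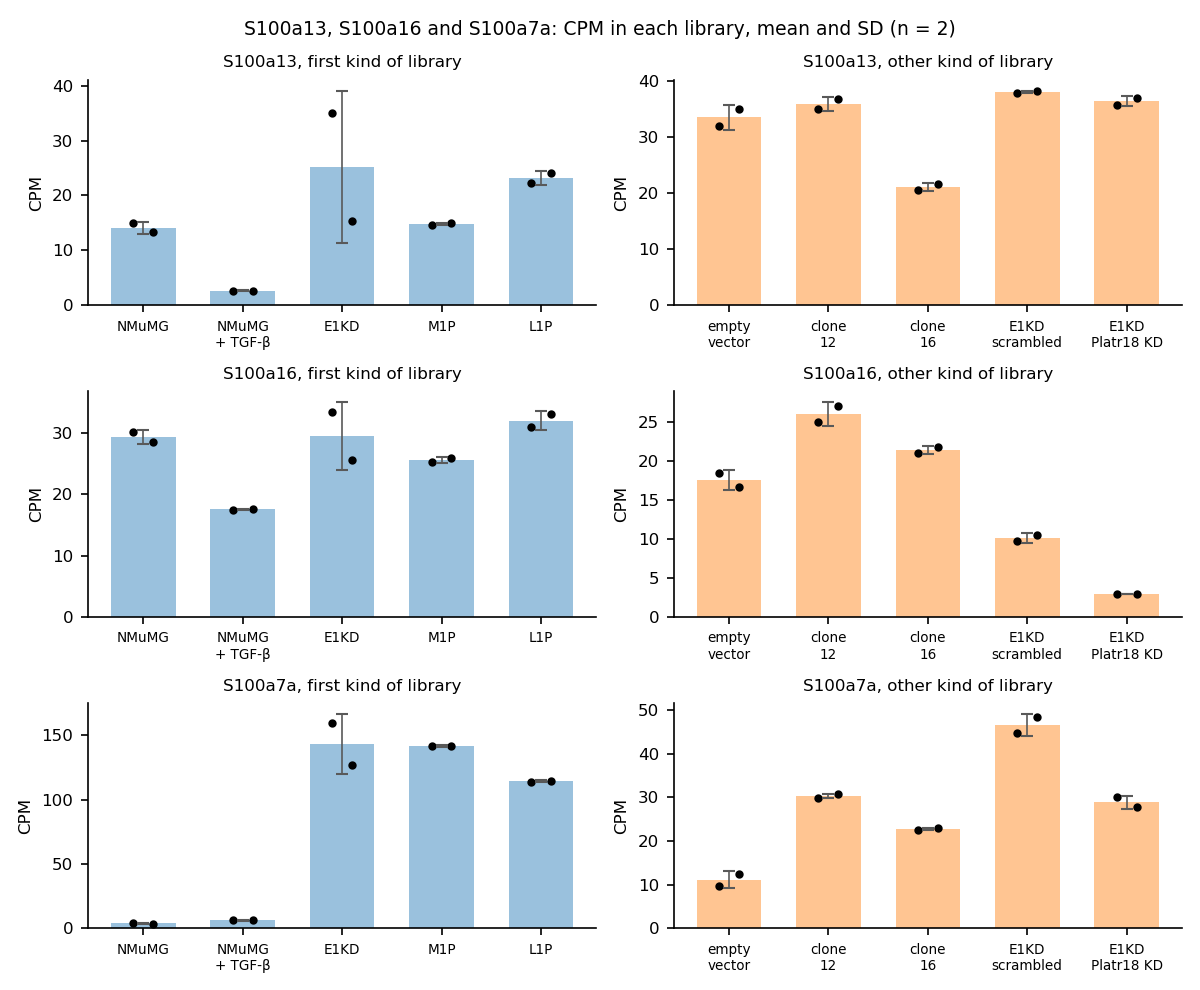
CPM of S100a13, S100a16 and S100a7a in the first (left) and the other kind of library (right). Points are libraries, bars their mean and lines the SD (n = 2). S100a13 was lowest after TGFβ, S100a16 was lowest in E1KD Platr18 KD at 2.97 and 2.91 CPM, and S100a7a was high in the E1KD, M1P and L1P libraries.

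The effect of hnRNP E1 silencing could be read again in the other kind of library, between E1KD SCR and the empty vector, 2 lines that also differ in their vectors. S100a4 rose from 99.1 and 112 CPM to 543 and 546 CPM, by 2.36 on the log2 scale (standard error 0.162, adjusted p = 3.1e-08, limma), and was again the 1 gene of the 8 called, beside 5.98% of all genes. Its effect in the 2 kinds of library differed by 0.37, with a 95% confidence interval from -0.13 to 0.86. Without E1KD library 1 that difference was -0.03. S100a6 was lower in E1KD SCR by -0.78 (adjusted p = 0.0195, limma) and S100a16 by -0.74 (adjusted p = 3.5e-05, limma), both under the limit. S100a16 had 18.5 and 16.7 CPM with the empty vector and 9.69 and 10.5 CPM in E1KD SCR, while in the first kind of library it had 30.1 and 28.5 CPM in NMuMG and 33.4 and 25.6 CPM in E1KD. The difference between these effects was 0.74 (adjusted p = 0.0019, limma), also under the limit. Over all genes this difference of effects was called for 3.51%, and the 1 S100 gene called was S100a7a. Of the 8 tested mesenchymal markers, 1 was called higher in E1KD SCR against the empty vector and 7 in E1KD against NMuMG. Their median log2 fold changes were 0.27 and 1.47, and the difference of effects was called for 5 of the 8, all positive. Lncenc1 was at 2.92 and 3.10 CPM in E1KD SCR, beside 3.69 and 3.06 CPM with the empty vector, while in the first kind of library its log2 fold change in E1KD was 2.87 (adjusted p = 3.5e-12, limma).

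S100a7a, outside the 10 genes but within the same block, had the largest change of the 10 tested S100 genes in E1KD. It had 3.98 and 3.68 CPM in NMuMG and 160 and 127 CPM in E1KD, higher by 4.90 on the log2 scale (adjusted p = 7.3e-14, limma). M1P held 141 and 142 CPM and L1P 114 and 115 CPM, and the E1KD and M1P libraries overlapped, which was not so for S100a4. With the empty vector it had 9.78 and 12.5 CPM, in clone 12 29.9 and 30.6 CPM, in E1KD SCR it was at 44.7 and 48.3 CPM, in clone 16 at 22.7 ± 0.313 CPM (SD, n = 2) and in E1KD Platr18 KD 29.9 and 27.8 CPM. It was called in the clones at 1.18 (adjusted p = 5.1e-07, limma) and in E1KD SCR at 1.98 (adjusted p = 2.3e-09, limma). The call in the clones was lost with clone 16 alone, at 0.98, and with a pseudocount of 5, at 0.96. Transcripts of 420 other genes matched part of an S100a7a transcript at 90% identity or more over at least 100 bases, and those of 139 other genes a transcript of S100a3, so some reads of both could come from repeated sequence. S100a3, the other tested gene outside the 10, had 2.80 and 3.22 CPM in E1KD SCR and 1.51 and 1.77 CPM after Platr18 silencing (log2 fold change -0.60, adjusted p = 8.0e-04, limma).

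**Figure D4:**
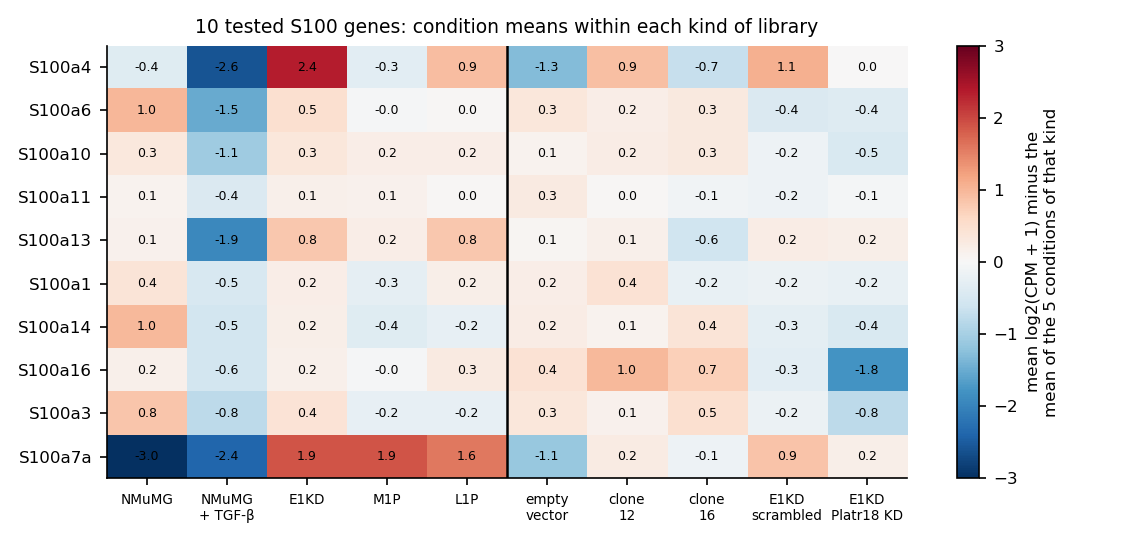
Mean log2(CPM + 1) of the 10 tested S100 genes in each condition, minus the mean of the 5 conditions of the same kind of library. The TGFβ column is below 0 for all 8 genes and for S100a3 and S100a7a, but S100a7a is lower still in untreated NMuMG. S100a4 is highest in E1KD and E1KD SCR, and S100a16 is lowest in E1KD Platr18 KD.

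The values of S100a11, which binds annexin A1, are uncertain. They were 145 to 221 CPM as means in the first kind of library and 26.9 to 36.8 CPM in the other. The processed pseudogene Gm12854, listed under a clone name, matches S100a11 at 99.0% over 297 bases and had 114 to 240 CPM in the libraries of the first kind and 11.7 to 16.4 CPM in the other. Another, Gm7665, matches at 98.7% over 297 bases and had 31.2 CPM in E1KD library 1 and at most 6.98 CPM in any other library. The other 3 of the 5 genes that matched S100a11 at 90% or more had at most 1.09 CPM in any library. Reads of S100a11 and the first 2 pseudogenes can hardly be told apart, and the authors' expectation-maximization method divides them. After TGFβ the sum of S100a11 and these 2 went from 404 and 393 CPM to 256 and 282 CPM, in the same direction as S100a11 itself. No other transcript matched S100a1, S100a6, S100a8, S100a9, S100a10, S100a13, S100a14 or S100a16 at that identity and length. A gene annotated across S100a4 on the same strand, RP23-326D6.5, was at or near 0 in all libraries.

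The calprotectin genes S100a8 and S100a9 were near the limit of detection. S100a8 had between 0.0178 CPM, which is 1 read, and 0.508 CPM, which is 32 reads, in E1KD SCR. S100a9 was listed at 0 in both TGFβ libraries and in 1 L1P library, and reached 0.447 CPM, or 32 reads, in clone 16. For S100a9, each of the 5 conditions of the first kind had at least 1 library at or under 3 reads. Ager, which encodes RAGE, had at most 0.867 CPM and was not tested.

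Among genes whose products work with S100 proteins, the annexins and Ahnak gave 14 tested genes, of which 3 were called lower after TGFβ, where 7.66% of all genes were: Anxa4 at -2.08, Anxa13 at -2.02 and Anxa2 at -1.43. Anxa2, the partner of S100a10, had 145 and 144 CPM in NMuMG and 51.5 and 54.5 CPM after TGFβ (adjusted p = 4.9e-08, limma), and S100a10 went from 168 and 153 CPM to 59.3 and 62.3 CPM in the same libraries. The level of Anxa2 fell 2.72-fold and that of S100a10 2.64-fold. Between E1KD and NMuMG, 1 of the 14 was called higher, Anxa7 at 1.26, and 1 lower, Anxa4 at -1.38, beside 9.44% of all genes called in either direction, and Anxa2 had a value of 0.37 (adjusted p = 0.0108, limma). Ahnak, a giant scaffold bound by S100a10 and Anxa2, had changes of -0.54 after TGFβ, -0.10 in E1KD and -0.55 after Platr18 silencing. Anxa1, a partner of S100a11, had -0.05 and 0.10, and Cacybp, a partner of S100a6, -0.38 and 0.41, after TGFβ and in E1KD. In clone 16 against clone 12, 1 of the 14 was called higher and 3 lower, beside 4.38% of all genes called in either direction. Anxa6 differed most between the clones, at -4.40. After Platr18 silencing 1 of the 14 was called higher and 1 lower, beside 1.48% of all genes, and Anxa6 fell by 1.48 on the log2 scale.

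Of 19 other partners 14 were tested, and Fgf1, a growth factor exported with S100a13, was lower in both EMT conditions, by -3.69 after TGFβ and -3.32 in E1KD. It was also lower in the clones (-2.05) and in E1KD SCR (-1.54). Of the 14, 4 were called after TGFβ, where 13.5% of all genes were, and 2 in E1KD, where 9.44% were. Called higher after TGFβ were 3 of them, Ppfibp1 at 2.11, Tpm1 at 1.81 and Myh9 at 1.14, and these encode liprin beta, tropomyosin and the nonmuscle myosin heavy chain, known ligands of S100a4. In E1KD, where S100a4 rose, 1 of the 14 was called higher, Tpm1 at 1.02. Of 7 tested receptor genes, Mcam was called higher in E1KD at 1.64 and after TGFβ at 1.53, and Alcam was called lower after TGFβ at -1.89, which makes 2 of 7 after TGFβ and 1 of 7 in E1KD, against the same shares of all genes. Of the plasminogen system only Plau, the urokinase gene, is given here, which was called higher in E1KD at 3.09 and in E1KD SCR at 2.59, and the calls of the other genes of that list are not reported. Of 13 tested calmodulins and other small EF-hand genes, 1 was called lower after TGFβ, Cib1 at -1.10, and 1 lower in E1KD, Gca at -1.82, which is near the share of all genes in both. The 7 fused S100-type genes of the epidermal differentiation complex did not pass the filter.

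Over the 10 condition means, each centred on the mean of its kind of library, the genes most like S100a4 were Tti2 (Pearson r = 0.986), Cdca4 (0.980) and Cdc25a (0.978). Those most like S100a13 were Prim1 (0.984), Mdc1 (0.982) and Zgrf1 (0.976), and those most like S100a16 were RP23-20M6.7 (0.968), RP23-468B9.1 (0.962) and Zfp202 (0.950). These r describe 10 points that share 20 libraries and were picked as the highest of 17106 genes. Within the family the highest r was 0.947, for S100a3 and S100a14. S100a6 and S100a10 had r = 0.920, S100a3 and S100a6 0.881, S100a6 and S100a14 0.845 and S100a4 and S100a13 0.842. The head-to-head pair S100a1 and S100a13 had 0.613.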

How the data were processed

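RNA of cultured cells was extracted with Trizol and sequenced on a HiSeq2500, as 20 libraries, 2 in each of 10 conditions. The authors aligned reads with Bowtie2 (2.2.5) to GRCm38.p6, assigned them to GENCODE genes by expectation maximization in Partek and deposited 1 table of CPM values with 0.0001 added, so an exact 0.0001 was read as listed at 0. Reads per library were recovered from the step of the low values. Because 90.2 to 97.7% of values under 50 reads were whole steps within 0.05 read, the others having been divided among genes, no count test was run. CPM summed to less than 1e6 over genes and unequally between libraries, which other scalings addressed.

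Groups came from the sample labels. Differences were tested with limma (3.58.1, R 4.3.3) on log2(CPM + 1), as 10 condition means fitted over all 20 libraries with a variance trend and 10 residual degrees of freedom, for the 17106 genes that reached 1 CPM in 2 or more libraries. Tests are two-sided, with Benjamini-Hochberg adjustment over all genes tested. The fit was tested on simulated data in which each gene had the same spread in every condition. The simulation thus could not check the fit for a wider spread between the E1KD libraries. An exact permutation test was not used because its smallest p is 0.333 for 2 against 2 libraries and 0.0667 for 4 against 2. Confidence intervals are at 95%. Levels per kb used the merged exon length in GENCODE M21, whose gene positions matched the table once 1 base was taken off the deposited ends. Near copies were sought with BLAST (2.17.0), at 90% identity over at least 100 bases. Tables were made in Python 3.11.15 with numpy 2.4.6, pandas 2.3.3, scipy 1.17.1 and matplotlib 3.10.9.

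The members and gene lists were chosen with earlier results of these data known. The genes named are all members in the comparisons where they are called or their level is given, the other tested S100 genes, up to 4 called genes of each other list with the largest change and no overlap, Anxa1, Anxa2, Ahnak, Cacybp and Ager, and the 3 genes most like each of the 3 members with the widest range. Alternatives were other pseudocounts, filters, scalings, variance priors, call rules, sets of libraries, single clones, a replicate block and leaving out each library. One gene that this rule names is not reported here.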

Additional observations from a re-analysis of the deposited data

Results flagged for a closer look

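The effect of hnRNP E1 silencing on S100a7a differed between the 2 kinds of library. S100a7a went from 3.98 and 3.68 CPM in NMuMG to 160 and 127 CPM in E1KD, and from 9.78 and 12.5 CPM with the empty vector to 44.7 and 48.3 CPM in E1KD SCR, and the difference of the log2 fold changes was 2.92 (adjusted p = 9.5e-09, limma). It lay between 2.75 and 3.08 with each library left out. The lines of the other kind also carry further vectors, so that the kind of library and the line cannot be told apart.

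The level of S100a4 differed between the 2 clones that overexpress Platr18, at 481 and 482 CPM in clone 12 and 164 and 158 CPM in clone 16. The log2 difference was -1.58 (adjusted p = 3.0e-06, limma). With 1 clone at each level of Platr18, the level and the clone cannot be told apart.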

How the results depend on the processing

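None of the 24 called values of S100 genes changed sign under any alternative run, and 13 lost the call under at least 1. With only the compared libraries in the fit, the number of the 10 tested S100 genes called was 1 in E1KD against NMuMG (2 in the report's fit), 2 in E1KD against TGFβ (6) and 0 from E1KD to M1P (1), where limma gave S100a4 an adjusted p of 0.0603. With only the 10 libraries of the first kind it was 0 from M1P to L1P (1). With a pseudocount of 0.1, where S100a14 was also called, it was 3 in E1KD against NMuMG, 7 in E1KD against TGFβ and 2 from E1KD to M1P, with a pseudocount of 5 it was 4 after TGFβ (6), S100a3 at -0.90 and S100a14 at -0.50 losing their calls, 5 in E1KD against TGFβ, S100a3 at 0.62, and 1 in the clones and 1 after Platr18 silencing (2 each), S100a7a at 0.96 and S100a16 at -0.93, with clone 16 alone it was 0, with median-of-ratios scaling it was 5 in E1KD against TGFβ, S100a3 at 0.94, and with scaling to equal sums it was 1 after Platr18 silencing. Leaving out 1 library gave 2 to 3 called in E1KD against NMuMG, 6 to 7 in E1KD against TGFβ, 1 to 3 from E1KD to M1P and 1 to 2 for the difference of effects, all of these moves coming from an E1KD library, and the same count in every other comparison. With 1 library left in a condition, that library is assumed to vary like the others.

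Of 100 log2 fold changes of S100 genes, 67 were called under some setting, had an adjusted p under 0.05 or are printed above, and the other 33, none of them called under any setting, included 18 that changed sign somewhere. Among the 67, sign changes came with scaling or a left-out library. In E1KD against NMuMG, S100a10 was -0.188 and S100a11 -0.173 with median-of-ratios scaling and -0.167 and -0.151 with equal sums. With each library left out, S100a10 lay between -0.25 and 0.28, S100a11 between -0.31 and 0.37 and S100a6 between -1.11 and 0.065. From E1KD to M1P, S100a10, S100a11 and S100a16 were 0.065, 0.21 and 0.022 with median-of-ratios scaling, and S100a10 and S100a11 were 0.026 and 0.17 with equal sums. With each library left out, S100a6 lay between -1.11 and 0.067, S100a10 between -0.42 and 0.12 and S100a11 between -0.35 and 0.34. For the difference of effects S100a4 lay between -0.028 and 0.77 and S100a13 between -0.063 and 1.07, and the ends of all these ranges came from leaving out an E1KD library. Apart from the left-out libraries and smaller fits, the cause was not tested.

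The libraries' numbers were not treated as pairs, since deviations of same-numbered libraries correlated between -0.395 and 0.287. A replicate block left the number of S100 genes called at 2 in E1KD against NMuMG and 6 after TGFβ and changed no other count. With the numbers crossed for E1KD against TGFβ and for clone 16 the counts were 6 and 2. Depth limits S100a8, S100a9 and, after TGFβ and in M1P and L1P, S100a14, which rest on 32 reads or fewer.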
